A study of Oryza sativa Japonica Group with 49 samples.

Results

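The 10 genes described here encode enzymes that make or break down compatible solutes in rice. They were taken as a fixed list of 10 of the 55986 gene models counted in each library, named by gene model and not by a threshold on measured values, although earlier results of these data were known when the list was made. The proline genes are P5CS1 (LOC_Os05g38150), P5CS2 (LOC_Os01g62900), P5CR (LOC_Os01g71990) and ProDH (LOC_Os10g40360). The glycine betaine genes are BADH1 (LOC_Os04g39020) and BADH2 (LOC_Os08g32870). The trehalose genes are TPP1 (LOC_Os02g44230) and TPP2 (LOC_Os10g40550), and the galactinol synthase genes are GolS1 (LOC_Os03g20120) and GolS2 (LOC_Os07g48830). The reference gene table was of another genome build and matched 0 of these identifiers, so names are those of the list and no coordinates are given.

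RNA-seq was read from 31 libraries of whole rice seedlings at the 4-leaf stage or of panicles, with 3 libraries per seedling group and 2 per panicle group. In the stress experiment (19 libraries), wild-type ZH11 (Zhonghua 11) seedlings were kept under normal, drought or heat conditions, wild-type DJ (Dongjin) seedlings under normal or drought conditions, and ZH11 panicles under normal or heat conditions. In the line experiment (12 libraries), seedlings of onac023, a T-DNA insertion mutant of the transcription factor gene ONAC023 in the DJ background, were set against DJ-WT under drought and under heat, and no normal libraries were part of it. DJ-WT plants, titled DJ in the labels, were wild-type segregants from the heterozygous parents of the mutant, so that the mutant is represented by 1 insertion line. By the labels, water was withheld for 7 d, and heat was 45 °C for 6 h in a growth chamber. The study's methods give other durations for the seedlings used in expression work and for panicles, and a lower temperature for heat at flowering. The length of each stress and the temperature of the panicle heat are therefore not settled. Each library pooled several plants from a separate repeat of the treatment, and p-values measure the spread between these repeats.

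Compatible solutes are small, highly soluble molecules that plant cells accumulate when water is short, where they hold osmotic pressure and protect proteins and membranes. Proline is made from glutamate by P5CS, the rate-limiting enzyme, and then P5CR, and it is broken down in mitochondria by ProDH. BADH enzymes oxidise betaine aldehyde to glycine betaine, although rice accumulates little of this solute, and BADH2 is best known as the fragrance gene. Trehalose is made by way of trehalose 6-phosphate, a signal of sugar supply that TPP enzymes dephosphorylate, and galactinol synthases make the galactinol from which raffinose family oligosaccharides are built.

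The total count per library ranged from 39789339 to 132110274, and all 10 genes passed the filter on low counts in every comparison. Levels are given as CPM (counts per 1000000 counts of a library, scaled by TMM over all 31 libraries), and each fold change comes from a fit of the groups compared only, so that ratios of levels and fold changes can differ slightly. The panicle libraries held the floral genes OsMADS2 and OsMADS4 at a summed 213 to 248 CPM, against at most 2.76 CPM in any seedling library. The summed level of 5 leaf photosynthesis genes (OsRBCS2, OsRBCS3, OsRBCS4, CAB2R and Lhcb5), which panicles held too, was 17230 to 24430 CPM in ZH11 seedlings under normal conditions and 3190 to 6596 CPM under drought. In DJ seedlings it was 8032 to 11060 CPM under normal conditions and 220.1 to 316 CPM under drought, with none of the 5 at 0. Under heat it was 9737 to 15190 CPM in ZH11 seedlings, below normal conditions without overlap. CAB2R did not follow this sum there, at 3844 to 5584 CPM under heat and 3240 to 5093 CPM under normal conditions, with overlap. In panicles the summed level was 6430 to 8402 CPM under normal conditions and 9540 to 10420 CPM under heat, higher under heat without overlap. In bulk tissue, fewer cells of a type and less RNA per cell cannot be told apart. The most frequent low count was 4 in ZH11 seedlings under normal and heat conditions and in panicles, and 2 in all other libraries, so the worth of 1 count cannot be told apart from the condition in the ZH11 drought comparisons, or from the variety in the comparison of DJ with ZH11 under normal conditions. All 10 genes kept their direction and call in these comparisons with counts rescaled for this.

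The lines were then checked against their labels. ONAC023 (LOC_Os02g12310) was counted 257, 222 and 65 times in the DJ-WT drought replicates 1 to 3 but 6, 4 and 9 times in those of onac023. In the heat replicates it was counted 105, 126 and 180 times in DJ-WT but 0, 2 and 0 times in onac023. Genes specific to a variety did not follow the labels throughout. A set of 36 genes was at 1 CPM or more in every ZH11 seedling library and at 0.1 CPM or less in every DJ seedling library, and 54 genes showed the reverse, by limits chosen after the data were seen. At 0.5 CPM or more, the DJ-WT drought libraries held all 36 ZH11 genes and all 54 DJ genes, and the DJ-WT heat libraries held 34 to 35 ZH11 genes and 42 DJ genes. Of the onac023 libraries, each held 18 to 23 ZH11 genes and 53 to 54 DJ genes under drought, and 17 to 21 and 45 to 46 under heat. By the way they were chosen, every DJ seedling library held 0 of the ZH11 genes. Libraries labelled DJ-WT and libraries labelled onac023 thus contained transcripts of this ZH11 set beside those of the DJ set, more of them in DJ-WT. The sets were defined in the other experiment, which had no DJ heat libraries, so whether DJ expresses the ZH11 set under heat is not known. The presence of both sets bears on every comparison of the lines below, and DJ seedlings can take the place of the DJ-WT drought libraries but not that of onac023. ZH11 heat replicate 1 also stood apart from the other ZH11 heat libraries, and results that turn on it are given without it.

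The 10 genes ordered the groups in different ways. GolS2, GolS1 and P5CS2 had the widest ranges, with group means that differed 198-fold, 144-fold and 109.6-fold between the highest and the lowest group. TPP1 ranged 42.6-fold, ProDH 19.2-fold, P5CS1 15.4-fold, TPP2 9.36-fold and BADH1 6.05-fold. P5CR and BADH2 were the steadiest, with ranges of 3.12-fold and 2.28-fold. The 4 highest groups of P5CS1, P5CS2 and GolS2 were the 4 drought groups, whereas GolS1 was highest in onac023 under heat (1879.9 ± 591 CPM, SD, n = 3) and in ZH11 panicles under heat (1672 ± 927 CPM, SD, n = 2), whose libraries overlapped.

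For P5CS2, group means fell from onac023 under drought (589 CPM) through DJ seedlings (481 CPM), DJ-WT (242 CPM) and ZH11 seedlings under drought (57.8 CPM), with no overlap between these neighbours, to panicles under normal conditions (41.1 CPM) and heat (35.8 CPM), which overlapped. ZH11 seedlings under normal conditions (14.0 CPM) and heat (10.8 CPM) overlapped next, and DJ seedlings under normal conditions (7.02 CPM), DJ-WT under heat (6.04 CPM) and onac023 under heat (5.37 CPM) overlapped at the bottom. For ProDH the drought groups were low instead of high, although their means kept the same order among themselves. Onac023 under heat (104 CPM), ZH11 seedlings under normal conditions (84.5 CPM) and DJ-WT under heat (81.2 CPM) led, the latter pair with overlap, and DJ-WT (7.64 CPM) and ZH11 seedlings under drought (5.40 CPM) came last and overlapped. TPP1 was highest in panicles under heat (80.1 CPM) and then under normal conditions (40.1 CPM), where it overlapped with onac023 under heat (36.9 CPM), and lowest in the drought groups, from 8.54 CPM in onac023 to 1.88 CPM in ZH11.

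**Figure D1:**
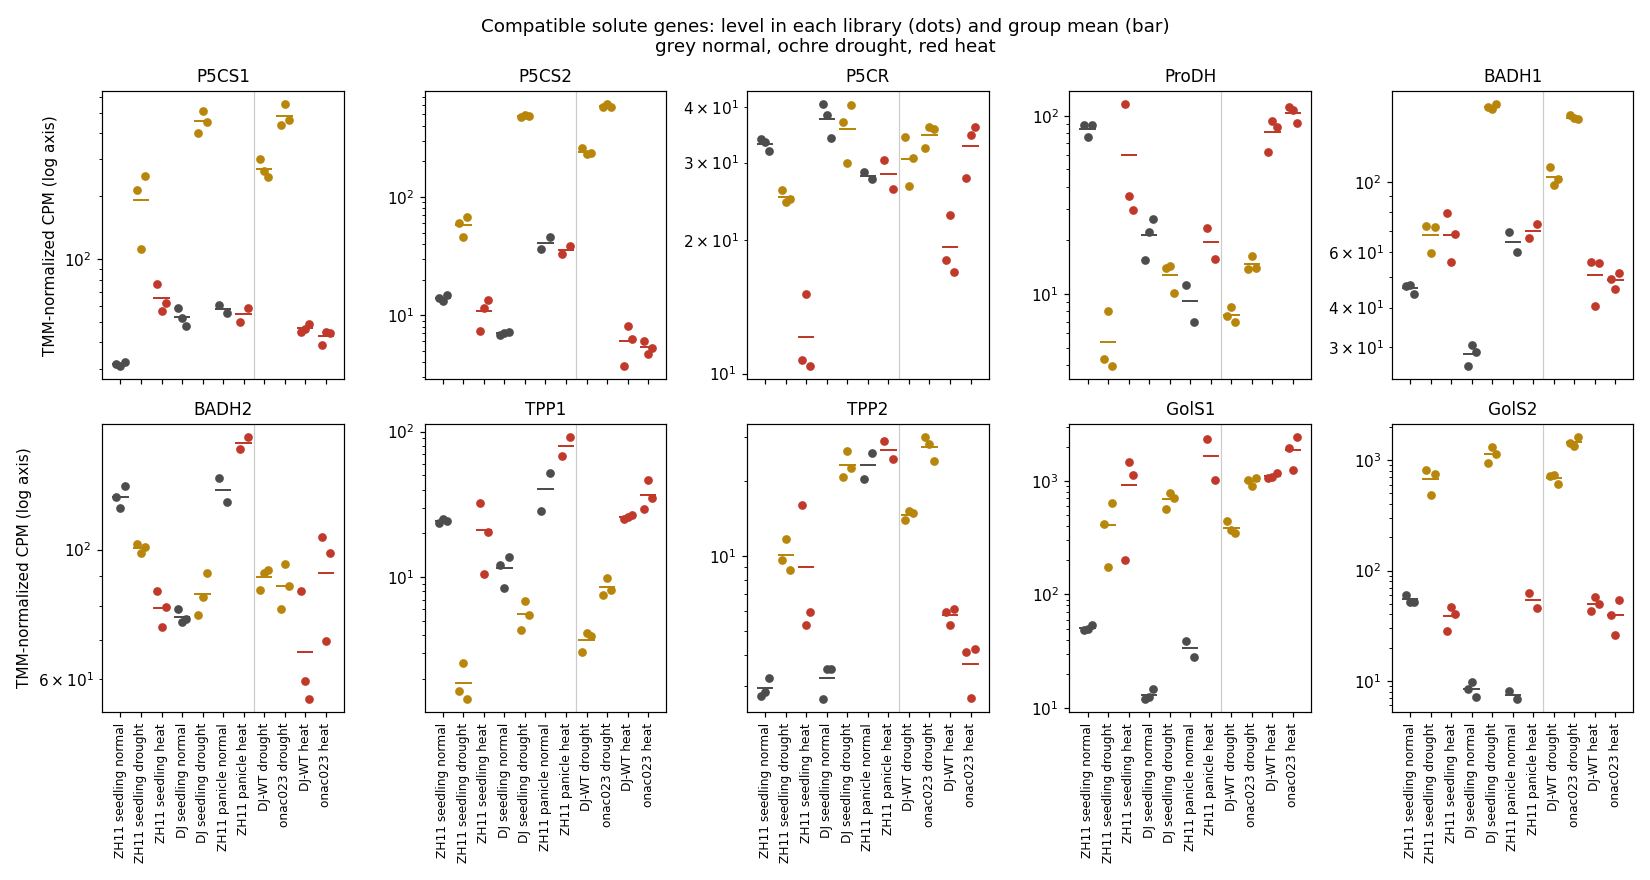
Level of each of the 10 genes in every library (dots, TMM-normalized CPM on a log axis) with the group mean (bar), in grey for normal, ochre for drought and red for heat; the 4 groups right of the line are the line experiment. P5CS1, P5CS2 and GolS2 are highest in the 4 drought groups, ProDH and TPP1 are low there, and P5CR and BADH2 move within 3.12-fold and 2.28-fold.

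Drought raised P5CS1 and P5CS2, the genes for the rate-limiting step of proline synthesis, in both varieties. In ZH11 seedlings, P5CS1 was at 31.6, 30.8 and 32.4 CPM in replicates 1 to 3 under normal conditions and at 214, 112 and 249.5 CPM under drought. In DJ seedlings it was at 58.8, 52.6 and 48.1 CPM and at 403, 514 and 455 CPM. Within each variety every drought library lay above every normal library. The log2 fold change (drought over normal) of P5CS1 was 2.61 ± 0.29 (SE, edgeR adjusted p = 0.000247) in ZH11 and 3.28 ± 0.15 (SE, edgeR adjusted p = 1.09e-07) in DJ, which are 6.11-fold and 9.74-fold increases. The difference between the varieties did not pass the test of the interaction (0.70 ± 0.31 (SE, edgeR adjusted p = 0.0676)).

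P5CS2, the second gene for the same enzyme, separated the varieties. It stood at 14.1, 13.2 and 14.8 CPM in ZH11 under normal conditions and at 60.2, 45.7 and 67.5 CPM under drought, a log2 fold change of 2.05 ± 0.15 (SE, edgeR adjusted p = 4.71e-05). In DJ it stood at 6.78, 7.02 and 7.25 CPM under normal conditions and at 472, 489.6 and 482 CPM under drought, a log2 fold change of 6.28 ± 0.13 (SE, edgeR adjusted p = 5.48e-09), or 77.6-fold. DJ thus started below ZH11 and ended above it, with no overlap at either end. The log2 response was larger in DJ by 4.25 ± 0.17 (SE, edgeR adjusted p = 3.01e-08).

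P5CR, the last enzyme of synthesis, passed the fold threshold in neither variety under drought. In ZH11 it was at 33.9, 33.3 and 31.9 CPM under normal conditions and at 26.0, 24.5 and 24.8 CPM under drought, without overlap, but the fold change stayed under 2 (log2 -0.39 ± 0.075, edgeR adjusted p = 0.00348). In DJ the groups overlapped, and the log2 fold change of 0.10 ± 0.13 (SE, edgeR adjusted p = 0.488) changed sign with upper quartile scaling and with all libraries in the fit.

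ProDH, which degrades proline, fell under drought in ZH11. It was at 88.7, 76.4 and 88.3 CPM under normal conditions and at 4.29, 7.98 and 3.93 CPM under drought, and the groups were far apart. Its log2 fold change was -3.95 ± 0.29 (SE, edgeR adjusted p = 4.47e-05), a 15.4-fold decrease. In DJ, ProDH was already low under normal conditions, at 15.5, 22.3 and 26.2 CPM, and stood at 13.9, 14.3 and 10.1 CPM under drought. The groups did not overlap, but the log2 fold change of -0.56 ± 0.20 (SE, edgeR adjusted p = 0.0298) was under the fold threshold. The interaction was 3.40 ± 0.38 (SE, edgeR adjusted p = 1.11e-05), so that the decrease was larger in ZH11. The ratio of P5CS1 to ProDH counts within a library was 0.357 to 0.403 under normal conditions and 14.1 to 63.5 under drought in ZH11. In DJ it was 1.83 to 3.78 and 29.0 to 45.0, so that the drought libraries of both varieties lay above all of their normal libraries.

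Of the glycine betaine genes, BADH1 rose under drought in DJ. It was at 26.1, 30.5 and 28.9 CPM under normal conditions and at 172, 170.2 and 176 CPM under drought, with a wide gap between the groups and a log2 fold change of 2.78 ± 0.11 (SE, edgeR adjusted p = 5.18e-08). In ZH11 it was at 46.7, 47.1 and 44.2 CPM and at 72.5, 59.4 and 72.1 CPM, also without overlap, and the log2 fold change of 0.57 ± 0.10 (SE, edgeR adjusted p = 0.00207) was under the fold threshold. The response was larger in DJ by 2.23 ± 0.13 (SE, edgeR adjusted p = 1.53e-07) on the log2 scale. BADH2, its paralogue, was 118 to 128 CPM under normal conditions and 98.7 to 102 CPM under drought in ZH11, and its log2 fold changes of -0.28 ± 0.077 in ZH11 and 0.31 ± 0.10 in DJ did not reach the fold threshold.

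The phosphatase genes TPP1 and TPP2 went in opposite directions under drought in ZH11. TPP1 was at 23.4, 25.0 and 24.1 CPM under normal conditions and at 1.64, 2.55 and 1.45 CPM under drought, whereas TPP2 was at 2.72, 2.82 and 3.24 CPM and 9.62, 11.7 and 8.80 CPM. Neither gene overlapped between the groups. The log2 fold change was -3.66 ± 0.23 (SE, edgeR adjusted p = 2.4e-05) for TPP1 and 1.79 ± 0.17 (SE, edgeR adjusted p = 0.000125) for TPP2. In DJ, TPP2 rose as well, from 2.65, 3.50 and 3.51 CPM to 20.8, 26.4 and 22.5 CPM, a log2 fold change of 3.02 ± 0.16 (SE, edgeR adjusted p = 2.76e-07). TPP1 in DJ was at 12.2, 8.40 and 13.8 CPM under normal conditions and at 4.30, 6.88 and 5.52 CPM under drought, below it in every library, with a log2 fold change of -0.86 ± 0.23 (SE, edgeR adjusted p = 0.00648) that was just under the fold threshold. It passed with upper quartile scaling (-1.09), with all libraries in the fit (-1.01), and without replicate 2 of drought (-1.05) or of normal conditions (-1.05). The interaction was 2.82 ± 0.34 (SE, edgeR adjusted p = 2.34e-05) for TPP1 and 1.26 ± 0.23 (SE, edgeR adjusted p = 0.000432) for TPP2, and that of TPP2 was lost with upper quartile scaling (0.95) and with all libraries in the fit (1.08, adjusted p = 0.0579).

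Both galactinol synthase genes rose under drought, and GolS2 had the largest change of the 10 genes in DJ. GolS1 was at 49.0, 49.1 and 53.8 CPM in ZH11 under normal conditions and at 415, 175 and 637 CPM under drought. In DJ it was at 11.96, 12.4 and 14.7 CPM and at 562, 788 and 709.9 CPM. No drought library came near a normal library, but ZH11 drought replicate 2 stood apart in many of the 10 genes. It was the lowest of its group for GolS1, GolS2, P5CS1, P5CS2, BADH1 and, narrowly, P5CR and BADH2. It was the highest for ProDH, TPP1 and TPP2. That library also held the leaf gene OsRBCS2 at 1863.5 CPM, against 555 and 811 CPM in replicates 1 and 3. GolS2 was at 60.0, 52.3 and 51.7 CPM in ZH11 under normal conditions and at 809, 481 and 755 CPM under drought. In DJ it was at 8.47, 9.67 and 7.10 CPM and at 946, 1327 and 1136 CPM, a 152-fold increase. The log2 fold changes were 3.03 ± 0.44 (SE, edgeR adjusted p = 0.000942) in ZH11 and 5.90 ± 0.19 (SE, edgeR adjusted p = 2.5e-08) in DJ for GolS1, and 3.65 ± 0.22 (SE, edgeR adjusted p = 2.34e-05) in ZH11 and 7.25 ± 0.22 (SE, edgeR adjusted p = 2.29e-08) in DJ for GolS2. The response was larger in DJ by 2.91 ± 0.47 for GolS1 and by 3.63 ± 0.29 for GolS2 on the log2 scale (edgeR adjusted p = 0.000201 and 9.56e-07).

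In all, 7 of the 10 genes were DEGs under drought in ZH11 (edgeR adjusted p under 0.05 and fold change over 2), 5 higher and 2 lower, where 43.1% of the 24797 genes tested were DEGs, 26.2% higher and 16.9% lower. In DJ 6 were DEGs, against 54.4% of 24257 genes, and all 6 were higher, against 25.2% of genes that were higher. The drought and normal libraries did not overlap for 10 of the 10 genes in ZH11, against 75.1% of genes, and for 8 of the 10 in DJ, against 82.2%. The median log2 fold change of the 10 genes was 1.18 in ZH11 and 2.90 in DJ, beside 0.07 and -0.14 over all genes tested. The interaction called 7 of the 10, against 48.4% of 25754 genes, all 7 with the more positive response in DJ, against 20.2% of genes. Of the genes called over the whole table, 41.8% had the more positive response in DJ, or 30.3% with upper quartile scaling. For ProDH and TPP1 this was a smaller decrease in DJ, and for P5CS2, BADH1, TPP2, GolS1 and GolS2 a larger increase. The leaf photosynthesis genes also differed more between drought and normal conditions in DJ than in ZH11 (values above), and their part in the result was not tested.

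**Figure D2:**
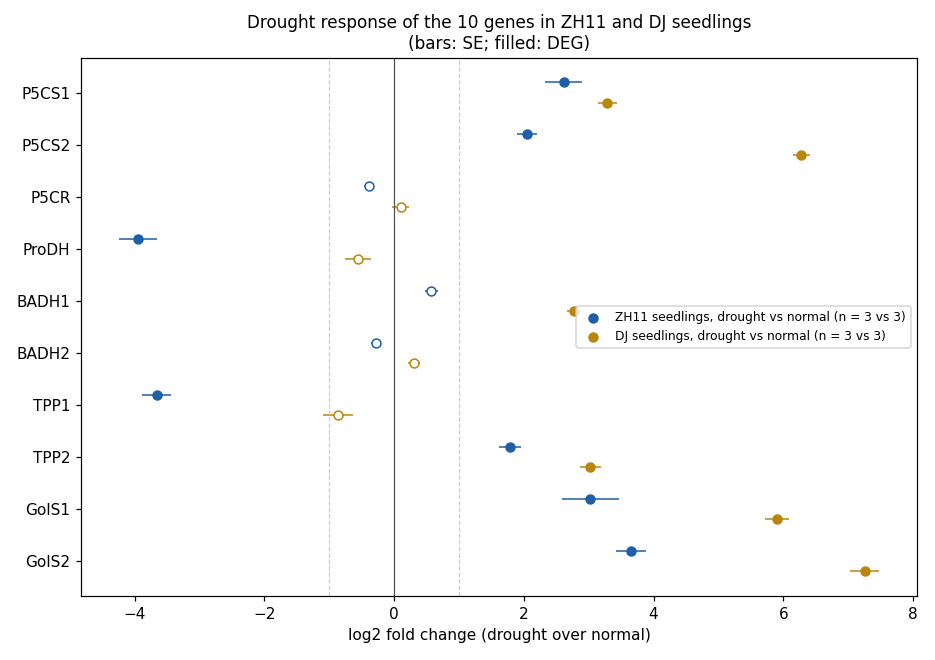
Log2 fold change of the 10 genes under drought (drought over normal, x axis) in ZH11 and DJ seedlings, 3 libraries per group, with SE bars and filled points for DEGs; dashed lines mark a fold change of 2. P5CS2 lies at 2.05 in ZH11 and 6.28 in DJ, and ProDH at -3.95 and -0.56.

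The trehalose genes outside the list that the study's supplementary tables annotate are OsTPS8 (LOC_Os08g34580) and LOC_Os02g54820, which are annotated as trehalose-6-phosphate synthases, LOC_Os05g44210, which has a trehalose phosphatase domain, and the trehalase gene OsTRE1 (LOC_Os10g37660). The study listed them from the DJ-WT and onac023 libraries, so they are not independent evidence there. Under drought in ZH11 all 4 were DEGs, 3 higher and LOC_Os05g44210 lower. In DJ 3 were DEGs, all higher. OsTRE1, whose enzyme cleaves trehalose, was at 1.81, 2.12 and 1.81 CPM in DJ under normal conditions and at 204, 266 and 232 CPM under drought, a log2 fold change of 7.11 ± 0.17 (SE, edgeR adjusted p = 8.32e-09), against 2.64 ± 0.12 in ZH11. OsTPS8 rose in both varieties, with log2 fold changes of 4.32 ± 0.19 in ZH11 and 3.69 ± 0.12 in DJ.

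Under heat, 4 of the 10 genes were DEGs in ZH11 seedlings, 3 higher and 1 lower, where 56% of the 25216 genes tested were DEGs, 31.4% higher and 24.5% lower. The median log2 fold change of the 10 genes was -0.27, beside 0.09 over all genes. The summed level of the leaf genes was lower under heat too, but not the level of CAB2R (values above). The part of the leaf genes in these differences was not tested. GolS1 had the largest change of the 10. It was at 49.0, 49.1 and 53.8 CPM under normal conditions and at 201, 1458 and 1121 CPM under heat, all above normal, with replicate 1 far below the other heat libraries. Its log2 fold change was 4.22 ± 0.71 (SE, edgeR adjusted p = 0.00187). GolS2 was at 28.2, 46.7 and 40.4 CPM under heat, below every normal library, with a log2 fold change of -0.49 ± 0.19 (SE, edgeR adjusted p = 0.0589) that did not pass the test.

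P5CR fell under heat in ZH11 seedlings. It was at 33.9, 33.3 and 31.9 CPM under normal conditions and at 10.7, 15.1 and 10.4 CPM under heat, without overlap, a log2 fold change of -1.43 ± 0.17 (SE, edgeR adjusted p = 0.000391). P5CS1 was at 76.4, 56.6 and 61.8 CPM under heat, above every normal library, and its log2 fold change was 1.06 ± 0.13 (SE, edgeR adjusted p = 0.000511). Without heat replicate 1 that value was 0.91, under the fold threshold. P5CS2 was at 7.34, 11.5 and 13.4 CPM and overlapped with normal conditions (log2 -0.36 ± 0.23 (SE, edgeR adjusted p = 0.196)). ProDH was at 116, 35.5 and 29.5 CPM under heat, so that replicate 1 lay above normal conditions and the other libraries below. Its log2 fold change was -0.46 ± 0.51 (SE, edgeR adjusted p = 0.444) with all libraries and -1.37, past the threshold, without heat replicate 1.

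TPP2 was at 15.9, 5.26 and 5.96 CPM in ZH11 seedlings under heat, above every normal library and highest in replicate 1. Its log2 fold change was 1.65 ± 0.45 (SE, edgeR adjusted p = 0.0141). It was 0.95 without heat replicate 1 and 1.59 without normal replicate 1 (adjusted p = 0.0507), and neither passed both thresholds. TPP1 was at 32.3, 10.6 and 20.5 CPM and overlapped with normal conditions, and its log2 fold change of -0.17 ± 0.37 (SE, edgeR adjusted p = 0.688) turned to 0.14 without heat replicate 2. BADH1 and BADH2 had log2 fold changes of 0.58 ± 0.15 and -0.61 ± 0.11, both under the fold threshold. Of the other trehalose genes, OsTPS8 and LOC_Os02g54820 were higher and LOC_Os05g44210 and OsTRE1 lower under heat. OsTPS8 was at 1.27, 1.44 and 1.70 CPM under normal conditions and at 140.4, 33.2 and 61.9 CPM under heat, a log2 fold change of 5.76 ± 0.60 (SE, edgeR adjusted p = 0.000218).

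In ZH11 panicles, the galactinol synthase genes were the only ones of the 10 that passed the test under heat. GolS1 was at 39.0 and 28.0 CPM under normal conditions and at 2327 and 1016 CPM under heat, and GolS2 at 8.05 and 6.84 CPM and 62.0 and 45.4 CPM. Neither gene overlapped between the groups, and the leaf genes were higher under heat as well (values above), whose part was not tested. The log2 fold changes of GolS1 and GolS2 were 5.73 ± 0.55 (SE, edgeR adjusted p = 0.00797) and 2.94 ± 0.23 (SE, edgeR adjusted p = 0.00597). Without panicle heat replicate 1 that of GolS1 was 5.00. This is 2 of the 10 genes, both higher, where 10.3% of the 27238 genes tested were DEGs and 8.57% were higher DEGs, and the median log2 fold change of the 10 was 0.32, beside -0.0045 over all genes. ProDH, at 11.2 and 6.98 and then 23.6 and 15.6 CPM, and TPP1, at 28.4 and 51.7 and then 68.2 and 91.9 CPM, were higher under heat in both libraries. Their log2 fold changes of 1.20 ± 0.32 (SE, edgeR adjusted p = 0.0724) and 1.08 ± 0.33 (SE, edgeR adjusted p = 0.0947) were past the threshold with DESeq2 (adjusted p = 0.00508 and 0.0114) and with the replicate block (adjusted p = 0.00706 and 0.0112), but not with edgeR without the block. ProDH also passed without normal replicate 1 (1.57) and TPP1 without normal replicate 2 (1.58).

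The heat responses of panicles and seedlings were compared by an interaction, which called 3 of the 10 genes, against 42.1% of 29005 genes. The response of GolS2 was more positive in panicles by 3.37 ± 0.33 (SE, edgeR adjusted p = 5.09e-05) and that of P5CR by 1.47 ± 0.25 (SE, edgeR adjusted p = 0.00108), whereas that of P5CS1 was less positive by a log2 difference of -1.11 ± 0.20 (SE, edgeR adjusted p = 0.00189), or -0.99 without seedling heat replicate 1. For GolS1 the difference was not resolved (1.47 ± 0.95 (SE, edgeR adjusted p = 0.231)). The differences of TPP1 (1.63) and ProDH (2.48) passed without seedling heat replicate 1, that of ProDH also with the replicate block (1.87), and that of TPP2 without seedling heat replicate 2 (-1.70) or 3 (-1.65), with DESeq2 (-1.46) and with all libraries in the fit (-1.36). Floral transcripts set panicles apart from seedlings under both conditions, whereas the summed leaf genes were lower in panicles under normal conditions and overlapped with seedlings under heat (values above). Single leaf genes differed in direction under heat. OsRBCS2 was at 408 to 632 CPM in panicles and 2320 to 4774 CPM in seedlings, and OsRBCS3 and Lhcb5 were also lower in panicles. CAB2R was higher in panicles, at 6046 to 6193 CPM against 3844 to 5584 CPM, and OsRBCS4 overlapped. The part of the floral and leaf genes was not tested.

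**Figure D3:**
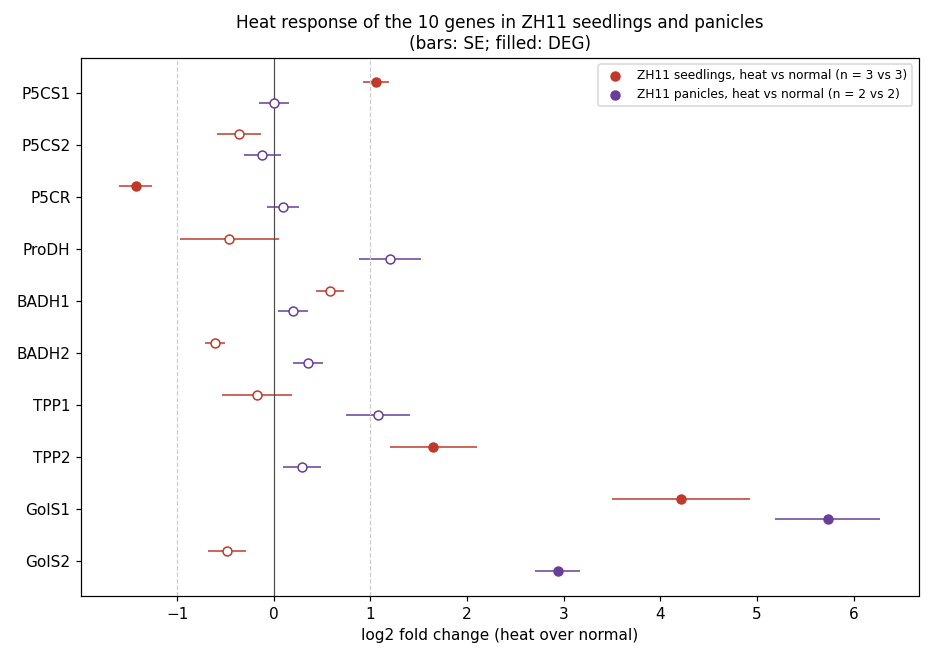
Log2 fold change of the 10 genes under heat (heat over normal, x axis) in ZH11 seedlings (3 libraries per group) and ZH11 panicles (2 per group), with SE bars and filled points for DEGs; dashed lines mark a fold change of 2. GolS1 is far right in both, at 4.22 and 5.73, and GolS2 is a DEG in panicles (2.94) but not in seedlings (-0.49).

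Heat and drought were then compared directly in ZH11 seedlings, where 6 of the 10 genes were DEGs, against 36.3% of 25556 genes, with 18.1% higher and 18.1% lower under heat. ProDH and TPP1 were higher under heat, with log2 fold changes (heat over drought) of 3.46 ± 0.62 (SE, edgeR adjusted p = 0.0053) and 3.47 ± 0.47 (SE, edgeR adjusted p = 0.00213). Without heat replicate 1, which was the highest of its group for both genes, these were 2.59 for ProDH and 3.05 for TPP1, and both stayed past the thresholds. GolS2, P5CS2, P5CS1 and P5CR were higher under drought, with log2 fold changes of -4.17 ± 0.34 (SE, edgeR adjusted p = 0.00071), -2.44 ± 0.28, -1.58 ± 0.32 and -1.07 ± 0.19. The value of P5CR was -0.97 without heat replicate 1 and -0.97 without heat replicate 3, under the fold threshold. For GolS1 the difference was not resolved (1.16 ± 0.76 (SE, edgeR adjusted p = 0.241)), but it passed without heat replicate 1 (1.66, adjusted p = 0.0366).

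Before any stress, 4 of the 10 genes differed between ZH11 panicles and seedlings, against 58.2% of 26693 genes. The normal seedling libraries used here are those of the ZH11 drought and heat comparisons. TPP2 was at 20.4 and 25.9 CPM in panicles, above all seedlings (2.72, 2.82 and 3.24 CPM), with a log2 fold change of 2.98 ± 0.15 (SE, edgeR adjusted p = 6.33e-06), and P5CS2 was higher too (1.55 ± 0.11 (SE, edgeR adjusted p = 3.64e-05)). ProDH (-3.22 ± 0.22 (SE, edgeR adjusted p = 2.55e-05)) and GolS2 (-2.88 ± 0.12 (SE, edgeR adjusted p = 3.27e-06)) were lower in panicles. TPP1 was under the fold threshold at 0.73 ± 0.23, and at 1.09 past it without panicle replicate 1.

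Between the varieties under normal conditions, 4 of the 10 genes were DEGs, against 38.5% of 24500 genes, and all 4 were lower in DJ, against 13.9% of genes that were lower. The log2 fold changes (DJ over ZH11) were -2.69 ± 0.12 (SE, edgeR adjusted p = 1.23e-06) for GolS2, -1.97 ± 0.18 (SE, edgeR adjusted p = 2.45e-05) for ProDH, -1.95 ± 0.10 (SE, edgeR adjusted p = 1.55e-06) for GolS1 and -1.07 ± 0.17 (SE, edgeR adjusted p = 0.000581) for TPP1. The value of TPP1 was -0.96 with upper quartile scaling and -0.89 without DJ replicate 2, under the fold threshold. P5CS2, at -0.99 ± 0.094, lay just under it, and passed without ZH11 replicate 2 (-1.04) or without DJ replicate 3 (-1.02). The median over the 10 genes was -0.84, beside 0.07 over all genes. P5CS1 was the other way round, 48.1 to 58.8 CPM in DJ and 30.8 to 32.4 CPM in ZH11, at a log2 fold change of 0.76 ± 0.083.

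The ratio of paired genes within a library does not depend on scaling, and is given as a description that was added after the values were seen. The ratio of TPP1 to TPP2 counts was above 1 in every normal and heat library and below 1 in every drought library. It was 7.45 to 8.85 under normal conditions and 0.165 to 0.218 under drought in ZH11, and 2.40 to 4.60 and 0.207 to 0.261 in DJ. The ratio of GolS1 to GolS2 was between 0.364 and 0.844 in all drought libraries and between 7.14 and 48.8 in all heat libraries, so that the libraries of both stresses did not overlap. The ratio of P5CS2 to P5CS1 was 0.115 to 0.151 under normal conditions and 0.952 to 1.17 under drought in DJ, higher under drought, and 0.427 to 0.458 and 0.270 to 0.407 in ZH11, lower under drought. The ratio of BADH1 to BADH2 was above 1 in the drought libraries of DJ, DJ-WT and onac023 and below 1 in all other libraries. Counts are not scaled by gene length, so the ratios are read between libraries and not as a measure of which gene is expressed more.

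**Figure D4:**
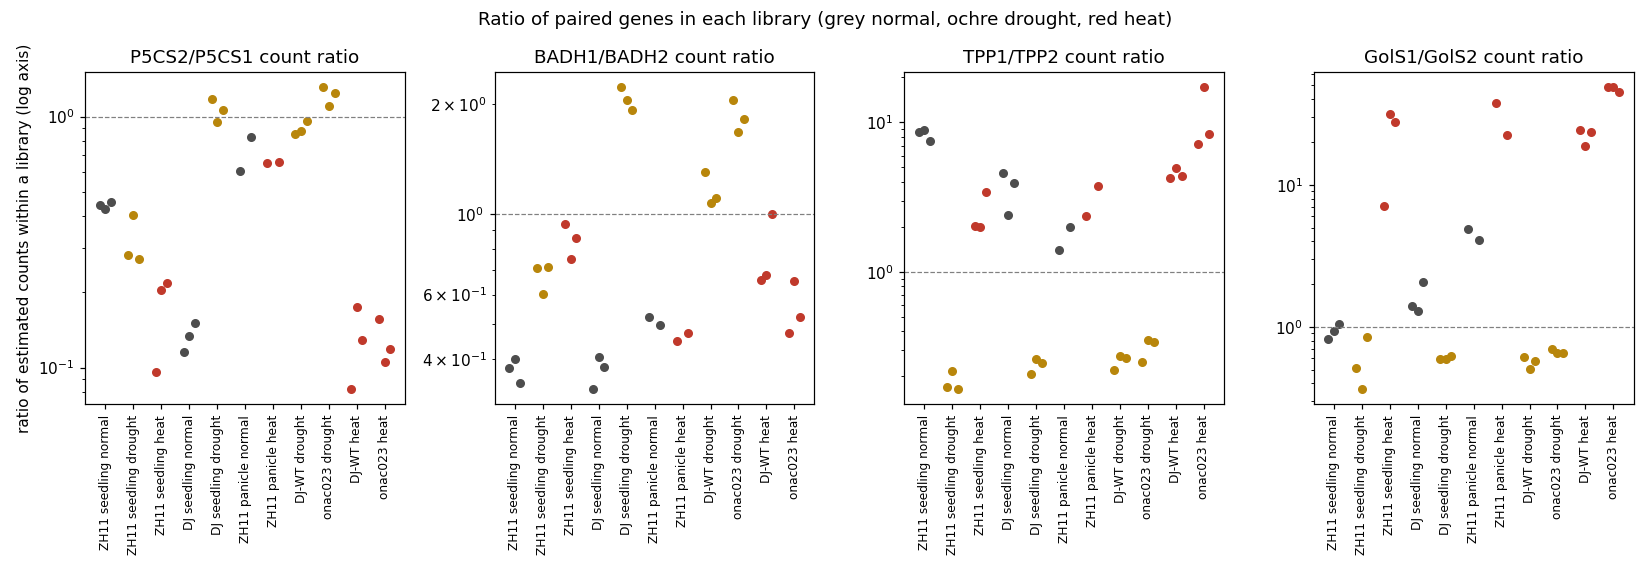
Ratio of counts of 4 gene pairs within each library (dots, log axis) by group, in grey for normal, ochre for drought and red for heat; the dashed line marks a ratio of 1. The ratio of TPP1 to TPP2 is below 1 in all drought libraries and above it in all others, and that of GolS1 to GolS2 is at most 0.844 under drought and at least 7.14 under heat.

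DJ-WT was then compared with onac023. These lines differed in the counts of ONAC023 and also in the number of ZH11 genes held (values above), and these differences cannot be told apart here. Under drought, 4 of the 10 genes were DEGs, against 25.3% of 24273 genes, and all 4 were lower in DJ-WT than in onac023, against 7.21% of genes that were lower. P5CS2 was at 257, 231 and 237 CPM in DJ-WT and at 578, 611 and 577 CPM in onac023. GolS1 was at 441, 372 and 349 CPM and 1009, 892 and 1060.5 CPM, and GolS2 at 716, 739 and 612 CPM and 1440.2, 1357 and 1626 CPM. TPP1 was at 3.07, 4.12 and 3.92 CPM and 7.54, 9.88 and 8.20 CPM. In none of these did the lines overlap. The log2 fold changes (DJ-WT over onac023) were -1.28 ± 0.071 (SE, edgeR adjusted p = 1.69e-05) for P5CS2, -1.35 ± 0.11 (SE, edgeR adjusted p = 3.95e-05) for GolS1, -1.20 ± 0.18 (SE, edgeR adjusted p = 0.00068) for TPP1 and -1.09 ± 0.11 (SE, edgeR adjusted p = 8.77e-05) for GolS2.

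P5CS1, ProDH, BADH1 and TPP2 were also lower in every DJ-WT than in every onac023 drought library, with log2 fold changes of -0.84 ± 0.11, -0.94 ± 0.12, -0.62 ± 0.066 and -0.90 ± 0.11 that were under the fold threshold. ProDH passed it without DJ-WT replicate 2 (-1.03) or onac023 replicate 1 (-1.004), and TPP2 without onac023 replicate 3 (-1.002). P5CR and BADH2 overlapped between the lines, so that 8 of the 10 genes did not, against 66.3% of genes. Of the other trehalose genes 1 of 4, OsTRE1, was a DEG (-1.24 ± 0.083 (SE, edgeR adjusted p = 2.46e-05)). The summed level of the 5 leaf genes was 2407 to 5011 CPM in the DJ-WT drought libraries and 218.5 to 315 CPM in onac023, close to the 220.1 to 316 CPM of DJ seedlings under drought, and its part in these differences was not tested. The leaf genes were chosen from genes annotated in the study's supplementary tables, which include lists drawn from these lines. They are not independent evidence of a difference between the lines.

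With DJ seedlings under drought in place of DJ-WT, none of the 10 genes was a DEG, and 1.28% of the 22978 genes tested were. At an unadjusted p under 0.05 there were 4 genes, P5CS2, TPP1, GolS1 and GolS2, but the share of all genes at that limit was not counted. P5CS2 was at 472, 489.6 and 482 CPM in DJ seedlings, and its log2 fold change (DJ seedlings over onac023) was -0.29 ± 0.087 (SE, edgeR adjusted p = 0.131). The values of GolS1 and TPP1 were -0.52 ± 0.13 (SE, edgeR adjusted p = 0.0791) and -0.62 ± 0.19 (SE, edgeR adjusted p = 0.134), and that of GolS2 was -0.37 ± 0.13 (SE, edgeR adjusted p = 0.192). P5CS1 was at -0.08 ± 0.12, ProDH at -0.20 ± 0.15 and TPP2 at -0.24 ± 0.12. OsTRE1, at -0.50 ± 0.11 (SE, edgeR adjusted p = 0.0488), was under the fold threshold. BADH1 turned from -0.62 to 0.12, P5CR from -0.18 to 0.05 and BADH2 from 0.05 to -0.05. These DJ libraries are of the stress experiment, so that line and experiment cannot be told apart in this comparison. For 9 of the 10 genes, all but GolS1, the DJ-WT drought mean lay between those of ZH11 and DJ seedlings under drought, as it did for 79.9% of the 24134 genes tested between these groups. P5CS2, for example, averaged 57.8 CPM in ZH11, 242 CPM in DJ-WT and 481 CPM in DJ seedlings.

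**Figure D5:**
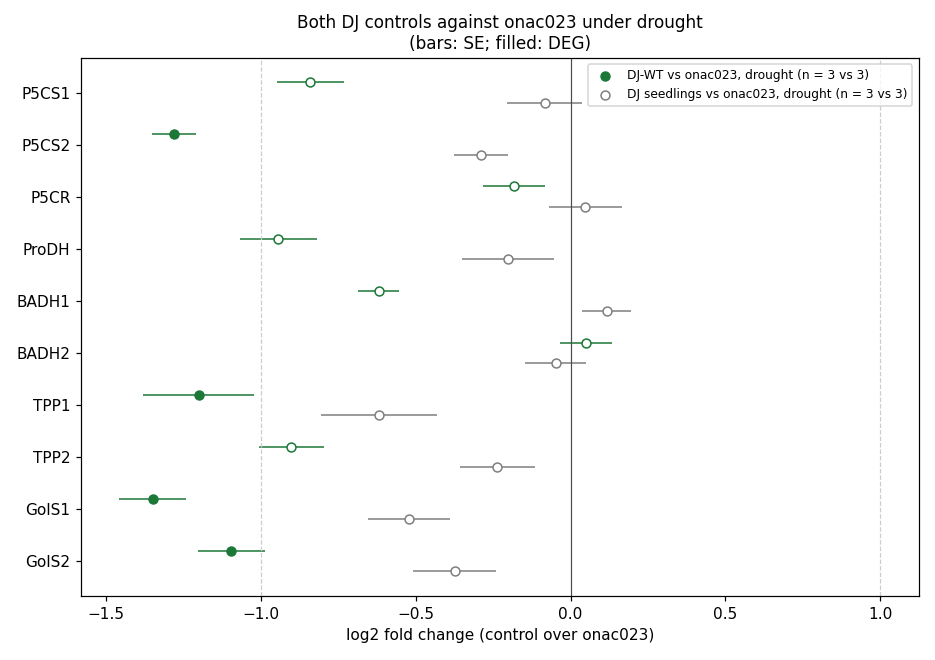
Log2 fold change of the 10 genes under drought with onac023 as the reference (control over onac023, x axis), for DJ-WT (green) and for DJ seedlings of the stress experiment (grey), 3 libraries per group, with SE bars and filled points for DEGs; dashed lines mark a fold change of 2. Against DJ-WT 4 genes are DEGs, and against DJ seedlings none is, with values between -0.62 and 0.12.

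Under heat none of the 10 genes was a DEG between DJ-WT and onac023 by edgeR, where 11.3% of the 23459 genes tested were DEGs. DESeq2 and the fit with the replicate block also called 0. At an unadjusted p under 0.05 there were 4 genes, but the share of all genes at that limit was not counted. Only 1, P5CR, had an adjusted p under 0.05, with a fold change under 2. Over all genes, 17.8% had such an adjusted p at any fold change. P5CR was at 18.1, 22.8 and 17.0 CPM in DJ-WT and at 27.7, 34.6 and 36.0 CPM in onac023, with no overlap and a log2 fold change of -0.71 ± 0.18 (SE, edgeR adjusted p = 0.0297). GolS1 was at 1062, 1072 and 1175 CPM in DJ-WT and 1946, 1259 and 2435 CPM in onac023, lower in every DJ-WT library, at -0.71 ± 0.26 (SE, edgeR adjusted p = 0.0971). TPP2 was at 5.94, 5.24 and 6.10 CPM and 4.11, 2.69 and 4.21 CPM, higher in every DJ-WT library, at 0.71 ± 0.25 (SE, edgeR adjusted p = 0.0835). No DJ heat libraries were in the stress experiment to take the place of DJ-WT. The summed level of the 5 leaf genes was 9305 to 23650 CPM in DJ-WT and 12440 to 18760 CPM in onac023 under heat, with overlap. DJ-WT heat replicate 1 stood apart, with CAB2R at 8142 CPM against 3168 and 3549 CPM in replicates 2 and 3. The part of the leaf genes in the heat values was not tested.

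The difference between the lines was itself compared between heat and drought. It differed for 3 of the 10 genes, TPP2 (1.54 ± 0.25 (SE, edgeR adjusted p = 0.000703)), P5CS2 (1.44 ± 0.30 (SE, edgeR adjusted p = 0.00334)) and GolS2 (1.41 ± 0.31 (SE, edgeR adjusted p = 0.00496)), against 23.6% of 25773 genes, and all 3 values were positive, against 8.91% of genes. Positive values made up 37.7% of the genes called over the whole table, or 48.6% with RLE scaling. P5CS1, at 0.97 ± 0.17 (SE, edgeR adjusted p = 0.00133), was just under the fold threshold, and passed it with RLE scaling (1.13), upper quartile scaling (1.02) and DESeq2 (1.13), as well as without DJ-WT drought replicate 1 (1.16), 2 (1.06) or 3 (1.01) and without onac023 drought replicate 1 (1.03). With DJ seedlings under drought as the wild type, a change made once the data had been seen, edgeR called 0 of the 10 genes, where 9.95% of 25043 genes were called, and DESeq2 was not run. The differences were then 0.94 for TPP2 (adjusted p = 0.0286), 0.52 for P5CS2 (adjusted p = 0.267), 0.76 for GolS2 (adjusted p = 0.142) and 0.28 for P5CS1 (adjusted p = 0.364). P5CR, TPP2 and GolS2 had an unadjusted p under 0.05, a limit at which the share of all genes was not counted. Experiment and line cannot be told apart in this form of the test.

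Across the 19 libraries of the stress experiment, P5CS2 varied most like BADH1 (Pearson's r of log2 CPM 0.89) and P5CS1 (0.87), and P5CS1 least like TPP1 (-0.67). Across the 12 libraries of the line experiment, P5CS1, P5CS2 and GolS2 varied together (r of 0.99 for each pair), and P5CS2 and ProDH went apart (-0.92). These values describe the libraries, which share groups and scaling, and in the line experiment they largely set drought against heat.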

How the data were processed

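The values are estimated counts that the authors deposited, in 1 table for each of the 2 experiments, for 55986 MSU gene models, as whole numbers that are not scaled to library size. Per the study's methods, reads were filtered with fastp and aligned to the MSU rice genome with STAR, whereas the submitters' processing notes name HISAT2, StringTie and DESeq2. Which tool counted the reads is not given in the sources used here, and replicates were not pooled. The stranded library kit was named in the methods, but not how strand was used in counting. Total counts ranged from 39789339 to 132110274 per library. No column of per-library values was left out. ChIP–seq libraries were not analysed here.

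Counts were used as deposited, without rounding, in edgeR 4.0.16 under R 4.3.3 (quasi-likelihood F-test, TMM, filterByExpr), and each fit held the groups of 1 comparison. A DEG had a Benjamini-Hochberg adjusted p under 0.05 over all genes tested and a fold change over 2, the study's thresholds. Interactions needed a difference of log2 fold changes over 1. There were 9 comparisons and 3 interactions. The SE of a log2 fold change was taken from its size over the root of F. Fits of some of the comparisons were run on simulated data with few changed genes, in both directions. This cannot test the scaling where many genes change. A prior count of 2 was added for the log2 CPM of the correlations. Figures were drawn with matplotlib 3.10.9.

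The text gives all 10 members in every comparison or in counts over them, with ONAC023 as a check. It adds 4 further trehalose genes and 7 marker genes, all annotated in the study's supplementary tables. The members, lists and tests were chosen with earlier results of these data known. Group labels came from the sample titles. Same-numbered DJ-WT and onac023 heat libraries deviated together (correlations of 0.55, 0.49 and 0.19 for replicates 1 to 3). The numbers may therefore pair these libraries, a reading that rests on the data alone. The value of replicate 3 was no larger than the 0.20 of replicate 3 between ZH11 seedlings under heat and drought. The main fits did not use this pairing. In no other comparison of 3 pairs were all correlations over 0.1. The alternatives were RLE and upper quartile factors, no filter on low counts, DESeq2 1.42.0, all libraries of a table in 1 fit, the replicate number as a block, counts divided by the most frequent low value, each library left out in turn, and DJ seedlings in place of DJ-WT. Replicates of a group differed by more than sampling noise in every pair. No sequences of these genes were in the reference used here.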

Additional observations from a re-analysis of the deposited data

Results flagged for a closer look

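Responses that differed between groups by the test of the difference itself are given here as differences of log2 fold changes, each with an edgeR adjusted p under 0.05. The drought response was more positive in DJ than in ZH11 seedlings for P5CS2 (4.25), GolS2 (3.63), ProDH (3.40), GolS1 (2.91), TPP1 (2.82), BADH1 (2.23) and TPP2 (1.26). Of the trehalose genes outside the list, the same held for OsTRE1 (4.49), LOC_Os05g44210 (2.25) and LOC_Os02g54820 (2.00).

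The heat response was more positive in panicles than in seedlings of ZH11 for GolS2 (3.37), OsTRE1 (2.69), LOC_Os05g44210 (2.03) and P5CR (1.47), and less positive for P5CS1 (-1.11) and OsTPS8 (-4.05). The panicle groups hold 2 libraries each.

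The difference between DJ-WT and onac023 was more positive under heat than under drought for OsTPS8 (1.80), TPP2 (1.54), P5CS2 (1.44), GolS2 (1.41), LOC_Os02g54820 (1.10) and OsTRE1 (1.00). DJ-WT and onac023 libraries held transcripts of ZH11 genes, and with DJ seedlings under drought in place of DJ-WT these values were 1.13 for OsTPS8, 0.94 for TPP2, 0.52 for P5CS2, 0.76 for GolS2, 0.40 for LOC_Os02g54820 and 0.33 for OsTRE1, of which that of OsTPS8 passed both thresholds. Over all genes, 23.6% were called with DJ-WT and 9.95% with DJ seedlings in its place. OsTPS8, LOC_Os02g54820 and OsTRE1 were listed by the study from these same lines, so they are not independent evidence here. Groups of 2 and 3 libraries are too small to test for single outlying libraries.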

How the results depend on the processing

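Over the 120 member values and their alternatives, 1633 of 1710 kept direction and call, 17 lost the call, 32 gained it and 28 changed sign, none of them a value that was called (0). Of the 50 values that were called, 13 lost the call under at least 1 alternative. The count of DEGs among the 10 genes moved by more than 1.5 times in 4 cases. For panicles under heat it was 4 with DESeq2 and 4 with the replicate block, against 2. For DJ-WT against onac023 under drought it was 0 with DJ seedlings in place of DJ-WT, against 4, with P5CR at 0.048, BADH1 at 0.12 and BADH2 at -0.048. The same change, chosen after seeing the data, took the interaction of the lines to 0, against 3, with ProDH at -0.090, BADH1 at -0.0027 and GolS1 at -0.19. Beside this, the block changed the call of ProDH in the heat interaction (1.87).

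When libraries were left out singly, the counts were 7 to 7 for drought in ZH11, 6 to 7 for drought in DJ, 3 to 4 for heat in seedlings, 2 to 3 for heat in panicles, 4 to 5 for panicle against seedling, 3 to 5 for DJ against ZH11, 5 to 6 for heat against drought, 4 to 5 and 0 to 0 for the lines under drought and under heat, and 7 to 7, 3 to 4 and 3 to 4 for the interactions of drought, of heat and of the lines. A lone library left in a panicle group is assumed to vary like the others.

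The other changes of sign were in values that were not called. P5CR in DJ under drought was -0.12 with upper quartile factors and -0.043 with all libraries in the fit. P5CS1 in panicles under heat was -0.078 with upper quartile factors and -0.0020 without a filter. BADH2 between panicles and seedlings was -0.027 with all libraries. BADH1 between heat and drought was 0.0015 with RLE factors, 0.0016 with DESeq2 and 0.0058 with all libraries. With 1 library left out, the ranges were -0.13 to 0.12 for BADH1 and -0.83 to 0.12 for TPP2 between heat and drought, -0.63 to 0.14 for TPP1 under heat in seedlings, and -0.088 to 0.10 for P5CS1, -0.026 to 0.22 for P5CR and -0.28 to 0.058 for P5CS2 under heat in panicles. They were -0.032 to 0.11 for BADH2 between panicles and seedlings, -0.029 to 0.098 for BADH2 between the lines under drought, -0.028 to 0.48 for P5CS2 between the lines under heat, and -0.038 to 0.38 for P5CS2 in the heat interaction. The cause of these changes was not tested.

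Upper quartile factors moved the median log2 fold change of all genes from -0.14 to -0.36 for drought in DJ and from -0.14 to -0.44 for the drought interaction, and RLE factors from -0.083 to 0.079 for the interaction of the lines. With total counts alone, the medians were -0.68 for drought in DJ, -1.14 for the drought interaction and -0.016 for the interaction of the lines. The TMM factors ranged from 0.555 to 1.36 over all libraries, and the calls of the members were not tested without such factors. Changes in members near the thresholds there are relative to these shifts.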

Other observations

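ZH11 heat replicate 1 differed from replicates 2 and 3 in several genes of the list at once. GolS1 was at 201, 1458 and 1121 CPM in replicates 1 to 3, ProDH at 116, 35.5 and 29.5 CPM, TPP1 at 32.3, 10.6 and 20.5 CPM and TPP2 at 15.9, 5.26 and 5.96 CPM. OsTPS8 was at 140.4, 33.2 and 61.9 CPM, and ONAC023 had 124, 0 and 4 counts. The trehalase gene OsTRE1 did not follow this pattern, at 6.62, 6.68 and 3.39 CPM.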
